A study of Homo sapiens with 6 samples.

Results

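HOXA3, HOXA4, HOXA5, HOXA6, HOXA7, HOXA9, HOXA10 and HOXA11, 8 genes of the HOXA homeobox cluster, were followed together with MEIS1 and PBX3, the genes of their DNA-binding partners. Each was taken by its symbol from the deposited table, where the 10 names matched 10 of 31853 genes, and all 10 passed the filter on low counts that left 18138 genes for testing. The cells were Mon-Mac-6, an established human line of acute monocytic leukaemia. Every library was poly(A) RNA from this line after 48 h, in DMSO (the vehicle) or in 500 nM WD6305, which the series title names as a PROTAC (a molecule that brings a protein to the ubiquitin ligase machinery for degradation) against METTL3, the enzyme that writes N6-methyladenosine on mRNA. Each group has 3 libraries.

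HOX genes code for transcription factors that set position along the body axis, and within a cluster the order of the genes on the chromosome follows the order in which they are switched on. In blood, the HOXA genes of the later positions, with HOXA9 as the best-known one, are active in stem and progenitor cells and are silenced as the cells mature. HOX proteins bind DNA with partners of the TALE homeobox family, among which MEIS1 and PBX3 accompany HOXA9 in leukaemia. Mon-Mac-6 is known to carry a fusion of KMT2A with MLLT3, and fusions of KMT2A, a histone methyltransferase that keeps HOX genes on, are known for high HOXA9 and MEIS1. A single line with this fusion is a model of that kind of leukaemia alone.

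The start regions of 3 neighbouring HOXA genes are shown because the results turn on them: HOXA6 and HOXA7 were called lower under WD6305, and HOXA9, which has the highest level of the cluster, was not called. That does not show that HOXA9 responded differently from its neighbours. Each window runs from 250 bases before to 50 bases after a transcription start (RefSeq, GRCh38.p14, minus strand, printed 5′ to 3′), at chr7:27147725-27148024 for HOXA6, chr7:27156626-27156925 for HOXA7 and chr7:27165488-27165787 for HOXA9. The windows of HOXA6 and HOXA9 lie inside the gene intervals given below, away from the annotated 5′ ends of those intervals. Capitals mark matches to 4 short motifs described after the sequences.
HOXA6: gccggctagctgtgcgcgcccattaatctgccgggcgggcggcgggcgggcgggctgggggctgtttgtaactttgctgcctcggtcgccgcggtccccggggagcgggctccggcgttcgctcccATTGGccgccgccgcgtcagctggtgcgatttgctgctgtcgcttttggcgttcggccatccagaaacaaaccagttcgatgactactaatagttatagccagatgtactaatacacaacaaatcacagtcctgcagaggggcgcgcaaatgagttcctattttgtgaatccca
HOXA7: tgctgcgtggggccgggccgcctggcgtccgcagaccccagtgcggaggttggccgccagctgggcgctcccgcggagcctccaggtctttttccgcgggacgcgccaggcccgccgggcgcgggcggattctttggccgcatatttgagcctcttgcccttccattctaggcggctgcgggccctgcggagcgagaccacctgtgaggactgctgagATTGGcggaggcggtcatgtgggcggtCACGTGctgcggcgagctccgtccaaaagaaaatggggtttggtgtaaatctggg
HOXA9: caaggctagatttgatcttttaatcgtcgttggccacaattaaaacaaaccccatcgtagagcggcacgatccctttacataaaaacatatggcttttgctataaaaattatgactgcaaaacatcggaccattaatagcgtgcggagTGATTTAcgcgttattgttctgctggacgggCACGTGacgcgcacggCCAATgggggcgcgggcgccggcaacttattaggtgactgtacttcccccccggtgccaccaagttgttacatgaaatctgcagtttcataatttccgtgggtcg

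The motifs were searched on both strands, and none of the matches shown overlaps another. CCAAT, the box bound by NF-Y and printed as its reverse complement where it lies on the other strand, was found in all 3 windows, 124 bases before the start in HOXA6, 32 in HOXA7 and 55 in HOXA9. CACGTG, the E-box bound by MYC and related factors, was found in HOXA7, 5 bases before the start, and in HOXA9, 71 bases before it. TGATTTA, a composite site of PBX and HOX proteins, was found in HOXA9 alone of the 3, 102 bases before the start. TGACAG, the core bound by MEIS proteins, was found in none of the 3 windows. RefSeq held 16 such windows for 9 of the 10 genes, with more for HOXA3 than for any other gene and none for HOXA5. Counts over the windows are therefore not counts over genes. CCAAT occurred in 8 of the 16 (7 genes), CACGTG in 4 (HOXA3, HOXA4, HOXA7 and HOXA9), TGACAG in 2 (HOXA4 and PBX3) and TGATTTA in 1 (HOXA9). Among 35116 windows of the same length over all genes, 34.6% held CCAAT, 7.26% CACGTG, 15.8% TGACAG and 2.89% TGATTTA. These matches describe letters and no binding was measured.

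Each library held 64525948 to 71155346 estimated counts. METTL3 RNA was 67.3 ± 2.86 CPM (the count scaled to a common library size, here with edgeR's TMM) with DMSO and 78.0 ± 1.88 with WD6305 (SD, n = 3), and METTL3 protein was not measured here. The labelled line was checked on 15 monocytic markers, all of which passed the filter, with a summed level of 4899 to 5128 FPKM (fragments per kilobase and per unit of sequencing depth) over the DMSO libraries and 8285 to 9131 over the WD6305 libraries, although CD4 stood at 0.0833 FPKM with DMSO. Of that sum, 1 marker alone held 3040 of a mean of 5005 FPKM with DMSO. Of these 15 markers, 10 were called higher and 2 lower (CD14 and MPO), against 12.2% and 11.2% of all tested genes. These changes stand beside every HOXA value given here, and their part in the results was not tested. Keratinocyte transcripts set libraries apart within each group: the marker list summed to 14450 to 18447 counts in DMSO 1, DMSO 2, WD6305 2 and WD6305 3, and to 700 in DMSO 3 and 481 in WD6305 1. Where a call on one of the 10 genes changed within the 4 keratin-holding libraries, that value is given too. The fibroblast list also set a library apart, at 2818 counts in WD6305 1 (mostly COL1A1, 3.48 of 4.56 FPKM) against 150 to 283 in the other 5. The labels leave unsaid whether replicate libraries stem from different cultures, so the p-values reflect a spread that may be technical.

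Levels along the cluster came first. In DMSO cells the HOXA genes formed a gradient with its top at HOXA9, broken by HOXA6 below HOXA5, and PBX3 stood above all of them. Mean levels in FPKM, the scale that allows genes to be compared, were 38.1 ± 0.616 for PBX3, 32.3 ± 1.61 for HOXA9, 22.6 ± 1.74 for HOXA10, 12.6 ± 0.322 for HOXA11 and 11.2 ± 0.847 for HOXA7 (SD, n = 3). HOXA5 followed at 6.68 ± 0.415, HOXA6 at 5.49 ± 0.456 and MEIS1 at 3.99 ± 0.111. HOXA3 at 1.81 ± 0.0351 and HOXA4 at 1.29 ± 0.284 FPKM were the lowest of the 10. The place of HOXA3 depends on the scale. In mean CPM it stood above HOXA6, at 8.23 against 7.42 with DMSO and 11.5 against 4.74 with WD6305. Elsewhere in the cluster, HOXA13 stood at 3.55 ± 0.362 and HOXA2 at 0.193 ± 0.0709 FPKM.

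Most steps of this order were larger than the spread of the libraries. Among these 12 genes in DMSO cells, 1 pair of neighbours in the order overlapped, MEIS1 with HOXA13, and each other neighbouring pair was separate in all 3 libraries. Under WD6305 the first 6 places were unchanged. MEIS1 at 3.74 ± 0.0321 FPKM then overlapped with HOXA13 at 4.11 ± 0.470 and with HOXA6 at 3.45 ± 0.708, while HOXA3 at 2.49 ± 0.255 stayed below HOXA6 in all libraries. Set among all tested genes in DMSO cells, PBX3 exceeded 94.1% of them, HOXA9 92.9%, HOXA10 89.6%, MEIS1 61.5% and HOXA4 43.0%.

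**Figure D1:**
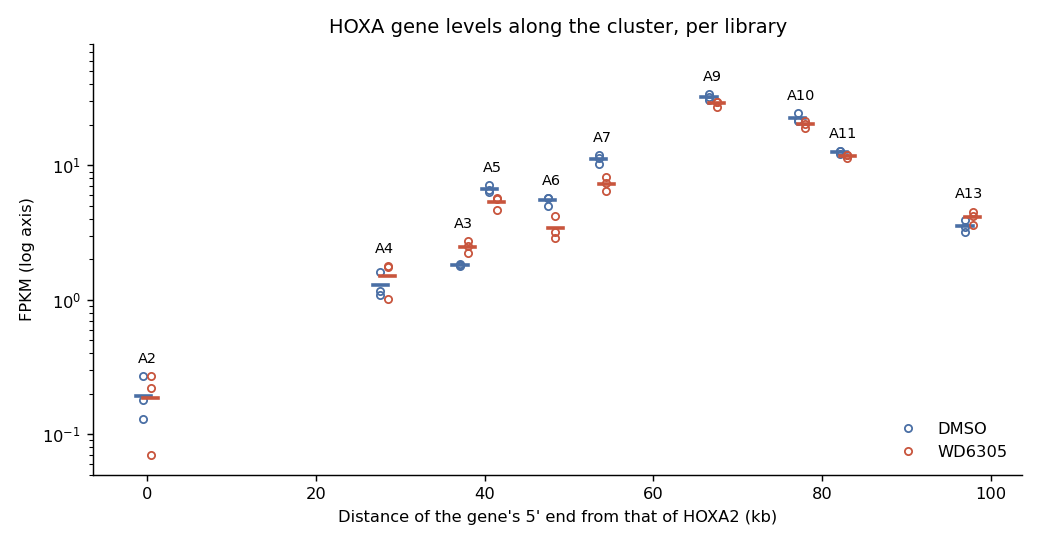
FPKM of 10 HOXA genes (log axis) against the distance in kb of each gene's annotated 5′ end from that of HOXA2. Each library has 1 circle, and a bar marks the mean of each group of 3. Levels climb from HOXA2 to HOXA9 at 67.1 kb, a climb broken by HOXA6, which lies below HOXA5 in both groups. They fall again to HOXA13 at 97.4 kb. All WD6305 circles lie below all DMSO circles at HOXA5, HOXA6, HOXA7, HOXA9, HOXA10 and HOXA11. At HOXA3, whose annotated 5′ end lies beyond that of HOXA4, all WD6305 circles lie above all DMSO circles.

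The expression of HOX genes in these cells lay almost wholly in the HOXA cluster. Its 11 genes held 99.5% of the summed FPKM of all HOX genes in the table in each group. The HOXB genes (9 in the table) summed to 0.21 to 0.33 FPKM per DMSO library, the 9 HOXC genes to 0.10 to 0.22 and the 7 HOXD genes to 0.060 to 0.11. Of these 25 genes, HOXC10 alone passed the count filter, and it was not called (log2 change -0.21, adjusted p = 0.933). Within the HOXA cluster, HOXA9, HOXA10 and HOXA11 together made up 67.8 ± 0.764% of the summed FPKM with DMSO and 69.7 ± 1.74% with WD6305 (SD, n = 3).

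**Figure D2:**
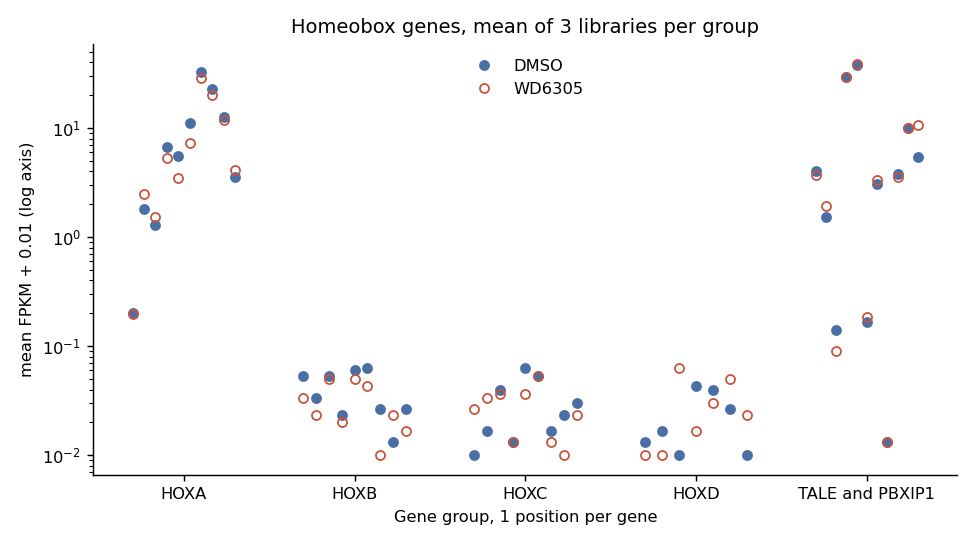
Mean FPKM + 0.01 of each homeobox gene (log axis), DMSO as filled and WD6305 as open circles, by cluster and for the TALE genes with PBXIP1, with 1 position per gene in listed order (not every gene is drawn). HOXA genes stand above 1 FPKM except HOXA2, while no HOXB, HOXC or HOXD gene exceeds 0.0533 FPKM in the mean of the DMSO libraries.

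The comparison of WD6305 with DMSO asked whether these genes change when cells meet the degrader. HOXA7 and HOXA6 fell by about the same proportion, HOXA3 rose, and HOXA9, HOXA10, HOXA11, MEIS1 and PBX3 moved by less than the test could call. By edgeR's quasi-likelihood test (two-sided, adjusted p under 0.05 by Benjamini-Hochberg over all 18138 tested genes), 1 of the 10 was called higher and 2 were called lower, where 12.2% and 11.2% of all tested genes were called in these directions. The 3 calls are 30.0% of the 10 genes against 23.4% of all genes tested, so the count by itself does not set them apart. In CPM the groups did not overlap for 4 of the 10, HOXA3, HOXA5, HOXA6 and HOXA7, as for 40.8% of all tested genes. In the deposited FPKM, which carry another scaling, the groups did not overlap for 8 of the 10, with HOXA9, HOXA10, HOXA11 and MEIS1 added, against 39.7% of all tested genes. The median log2 change was -0.11 for the 10 genes, 3 of them with a positive and 7 with a negative value, and 0.000333 for all genes tested. In bulk RNA, fewer cells that express a gene and less RNA of it per cell cannot be told apart.

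**Figure D3:**
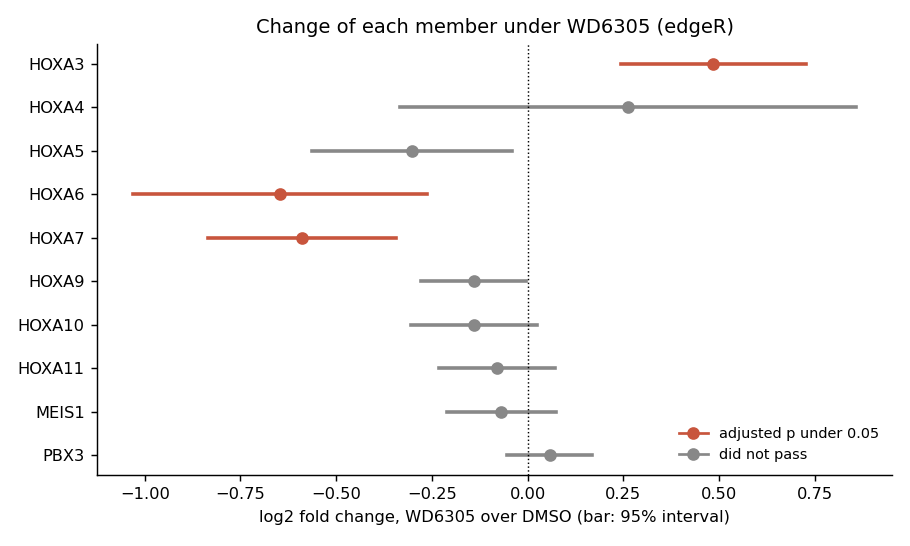
Log2 fold change of each of the 10 genes, WD6305 over DMSO, with its 95% interval from edgeR, n = 3 libraries per group. Coloured points passed an adjusted p of 0.05: HOXA3 lies to the right of 0 and HOXA6 and HOXA7 to the left, while the narrow intervals of MEIS1 and PBX3 span 0.

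HOXA7, the most highly expressed gene of the central part of the cluster, occupies 27153716 to 27156675 of chromosome 7 (GRCh38), minus strand, and has no overlapping gene in the table. Its level was 30.5, 29.0 and 25.6 CPM in DMSO 1 to 3 and 16.5, 19.0 and 21.1 CPM in WD6305 1 to 3. Every WD6305 library lay below every DMSO library. The mean fell from 28.4 ± 2.54 to 18.9 ± 2.27 CPM (SD, n = 3), 33.5% lower, with a log2 change of -0.59 (SE 0.11, 95% interval -0.83 to -0.34, edgeR adjusted p = 0.00476). The call was kept in each of the 18 other settings tried, with adjusted p between 2.26e-06 and 0.0238. The setting that adds overlapping genes left the counts of HOXA7 unchanged and was no separate check of it. WD6305 1, the library with the fibroblast transcripts, had the lowest HOXA6 and HOXA7 and the highest HOXA3 of its group. Without it the log2 changes were -0.50 for HOXA7 (adjusted p = 0.0189), -0.53 for HOXA6 (0.0759) and 0.41 for HOXA3 (0.0474).

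HOXA6, the neighbour of HOXA7 on the side of HOXA5, lies from 27145396 to 27150603 on the same strand. It stood at 7.88, 7.78 and 6.60 CPM in DMSO 1 to 3 and at 3.95, 4.40 and 5.87 CPM in WD6305 1 to 3. The groups were separate, with the closest pair, DMSO 3 and WD6305 3, less than 1 CPM apart. The mean went from 7.42 ± 0.712 to 4.74 ± 1.00 CPM, 36.1% lower, with a log2 change of -0.65 (SE 0.17, 95% interval -1.03 to -0.26, edgeR adjusted p = 0.0237). This call is less firm than that of HOXA7: it was lost in 7 of the 18 other settings, among them without DMSO 1 (adjusted p = 0.0764), DMSO 2 (0.0789), WD6305 1 (0.0759) or WD6305 2 (0.0795), in the 4 keratin-holding libraries (0.0502) and without the count filter (0.0592), with its sign kept. The 3 noncoding genes that overlap HOXA6 held 29.9% of the counts summed over it and them, and with those counts added the log2 change was -0.64 (adjusted p = 0.0194).

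HOXA6 and HOXA7 ran together over the libraries. Their log2 CPM correlated at Pearson r = 0.981 over the 6 libraries, a description that the difference between the groups enters and that has no test. Their share of the summed HOXA FPKM was 17.8, 16.5 and 15.9% in DMSO 1 to 3 and 10.7, 12.3 and 14.0% in WD6305 1 to 3. No WD6305 library reached the lowest DMSO library. The pair was made of the genes called lower, so this share restates those calls and adds no separate result. The summed FPKM of all 11 HOXA genes was 99.3, 104 and 95.5 with DMSO and 86.6, 86.5 and 88.6 with WD6305, also separate. In FPKM 39.7% of all tested genes were separate too, and the sum was not tested. HOXA9, HOXA10 and HOXA11, which made up 67.8% of it with DMSO, overlapped between the groups in CPM and were not called.

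HOXA5 lies next to HOXA6, from 27141052 to 27143681. Its level was 12.0, 13.0 and 11.3 CPM with DMSO and 10.4, 8.44 and 10.6 CPM with WD6305. The groups did not overlap, but the gap between DMSO 3 and WD6305 3 was small. The log2 change of -0.30 (SE 0.12, 95% interval -0.56 to -0.04) did not pass after adjustment (edgeR adjusted p = 0.0938), nor in any other setting tried (adjusted p 0.0518 to 0.261).

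HOXA3, which acts in the development of the pharyngeal arches and of blood-forming endothelium, was the called gene that went the other way. It is annotated from 27106184 to 27140225 on the minus strand, an interval that contains HOXA4. Its level was 8.19, 8.25 and 8.26 CPM in DMSO 1 to 3 and 12.7, 10.2 and 11.6 CPM in WD6305 1 to 3. The DMSO libraries lay close together, and every WD6305 library stood above them. The mean rose from 8.23 ± 0.0361 to 11.5 ± 1.24 CPM, 1.40-fold, with a log2 change of 0.49 (SE 0.11, 95% interval 0.24 to 0.73, edgeR adjusted p = 0.0111). In the 4 keratin-holding libraries the log2 change was 0.41 and the call was lost (adjusted p = 0.0630).

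HOXA4, from 27128507 to 27130780, was low and scattered. It stood at 1.98, 2.15 and 2.88 CPM with DMSO and 3.24, 1.88 and 3.31 CPM with WD6305, where WD6305 2 was the lowest of all 6. Its log2 change of 0.26 (SE 0.26, 95% interval -0.33 to 0.86) did not pass (edgeR adjusted p = 0.534). HOXA4 shares its interval with HOXA3 and 3 noncoding genes, which held 85.4% of the counts summed over the 5. That sum, in which HOXA3 has the largest part, had a log2 change of 0.33 (adjusted p = 0.0390). The libraries were made with a kit that marks the strand, but no source used here says whether it was used in counting, so reads of HOXA3, HOXA4 and the antisense genes may be split in part by estimation.

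**Figure D4:**
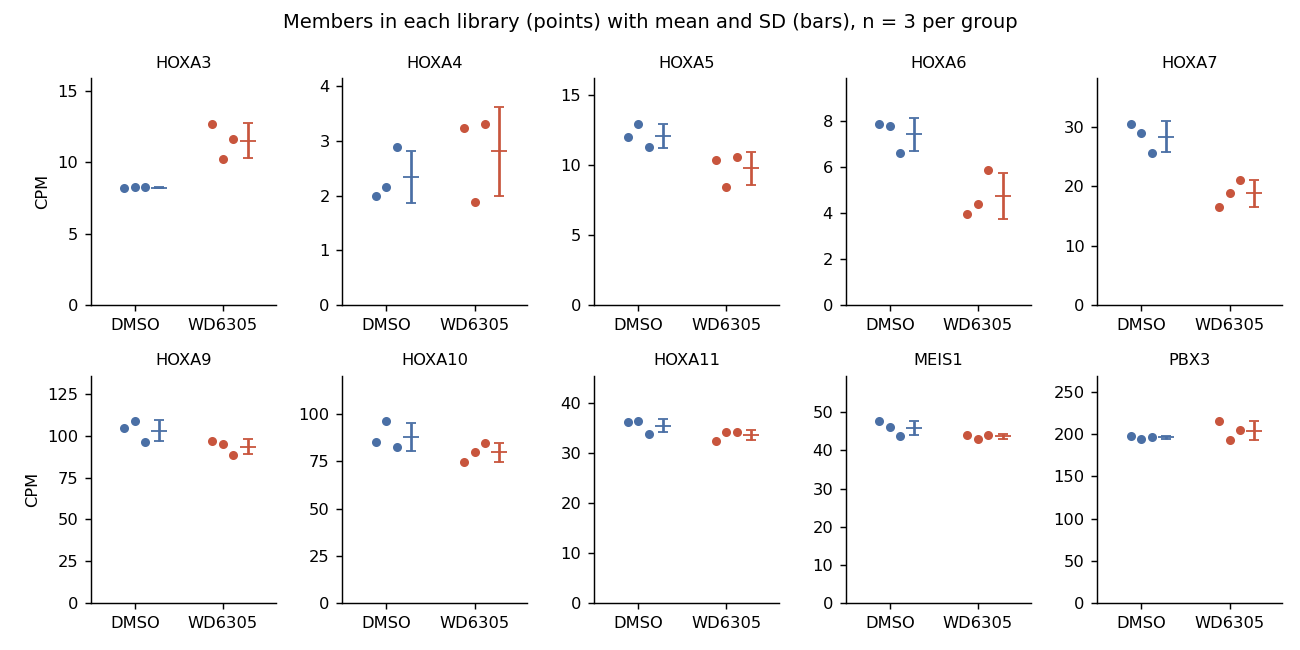
CPM of the 10 genes in each library, 1 panel per gene with its own axis from 0, as points for DMSO 1 to 3 and WD6305 1 to 3 with the mean and SD of each group beside them (n = 3). The groups are separate for HOXA3, HOXA5, HOXA6 and HOXA7, and overlap for HOXA4, HOXA9, HOXA10, HOXA11, MEIS1 and PBX3.

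HOXA9, the HOX factor on which KMT2A-rearranged leukaemia cells are known to depend, lies from 27162438 to 27169737 on the minus strand. Its level was 104, 109 and 96.4 CPM with DMSO and 96.8, 95.4 and 88.6 CPM with WD6305. In CPM, DMSO 3 lay below WD6305 1, whereas in FPKM the groups were separate, at 32.4, 33.9 and 30.7 with DMSO and 29.9, 29.6 and 27.2 with WD6305. The mean was 103 ± 6.22 and 93.6 ± 4.42 CPM, and the log2 change of -0.14 (SE 0.06, 95% interval -0.28 to -0.0029) did not pass (edgeR adjusted p = 0.132). It did pass without DMSO 3 (-0.19, adjusted p = 0.0403) and in the 4 keratin-holding libraries (-0.21, adjusted p = 0.0353), which leave out that library too. The lower bound of its interval, -0.28, is closer to 0 than the estimate of -0.59 for HOXA7, but no test here could show a difference between the genes.

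HOXA10, which like HOXA9 is active in blood progenitors, lies from 27170605 to 27180261. It stood at 85.5, 96.2 and 82.4 CPM with DMSO and 74.9, 80.1 and 84.9 CPM with WD6305, with overlap between the groups in CPM and none in FPKM. Its log2 change was -0.14 (SE 0.07, 95% interval -0.30 to 0.03, edgeR adjusted p = 0.210). HOXA11, known for its part in limb and kidney patterning, lies from 27181157 to 27185232 and had levels of 36.1, 36.3 and 33.9 CPM with DMSO and 32.4, 34.1 and 34.1 CPM with WD6305. Its log2 change was -0.08 (SE 0.07, 95% interval -0.23 to 0.07, adjusted p = 0.456). Neither gene passed in any other setting tried. HOXA11-AS, the antisense gene of HOXA11, held 39.4% of the counts summed over both.

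Whether neighbours differed in their response was asked by the log2 ratio of the FPKM of adjacent genes, in 7 pairs. The ratio of HOXA7 to HOXA9 was -1.44, -1.57 and -1.58 with DMSO and -2.22, -2.0 and -1.74 with WD6305, a difference of -0.45 without overlap (exact permutation test, two-sided, p = 0.1, adjusted over the 7 pairs 0.35). HOXA5 to HOXA6 was also separate, with a difference of 0.36 (exact p = 0.1, adjusted 0.35). With 3 libraries against 3, 0.1 is the smallest p this test can give, so no pair could pass. The ratio of HOXA6 to HOXA7 differed by -0.07 (exact p = 0.5) and that of HOXA9 to HOXA10 by -0.0019 (exact p = 1.0), both with overlap. The remaining 3 pairs overlapped too, with differences of 0.24 for HOXA3 to HOXA4, 0.54 for HOXA4 to HOXA5 and -0.06 for HOXA10 to HOXA11 and exact p between 0.2 and 0.5.

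MEIS1, the TALE partner that binds DNA together with HOXA9 and PBX proteins, lies on the plus strand of chromosome 2 from 66433452 to 66573869. Its level was 47.6, 46.2 and 43.8 CPM with DMSO and 44.1, 43.0 and 44.1 CPM with WD6305. DMSO 3 lay within the range of the WD6305 libraries in CPM, and in FPKM the groups were separate, at 3.87 to 4.09 with DMSO and 3.70 to 3.76 with WD6305. The log2 change was -0.07 (SE 0.06, 95% interval -0.21 to 0.07, edgeR adjusted p = 0.493).

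PBX3, the PBX protein that pairs with both HOX and MEIS factors, lies on the plus strand of chromosome 9 from 125747345 to 125967377. It stood at 198, 194 and 197 CPM with DMSO and 215, 193 and 205 CPM with WD6305. WD6305 2 lay below all DMSO libraries and the other two above them. The log2 change was 0.06 (SE 0.05, 95% interval -0.05 to 0.17, edgeR adjusted p = 0.455). MEIS1 and PBX3 passed in none of the other settings tried and kept their signs. The level of PBX3 was 9.57 ± 0.394 times that of MEIS1 in FPKM with DMSO and 10.4 ± 0.449 times with WD6305 (SD, n = 3). In CPM, which takes no account of gene length, the DMSO means were 196 for PBX3 and 45.9 for MEIS1. On that scale MEIS1 stood above HOXA11 at 35.4 and HOXA7 at 28.4 with DMSO, unlike in FPKM.

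The genes whose log2 CPM followed each of the leading members most closely over the 6 libraries were taken by Pearson r among 10985 genes with a mean of at least 1 FPKM. For HOXA9 they were AP2A1 (r = 0.995), SESN2 (0.990) and HMGXB3 (0.989). For MEIS1 they were RER1 (0.992), TMEM183A (0.989) and ALDH9A1 (0.985), and for PBX3 ZNF354B (0.988), CPT1B (0.985) and ACCS (0.978). None of these 9 genes was called, and with 6 libraries and this many genes such values describe the libraries only.

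Among 7 noncoding and flanking genes of the HOXA locus, 1 was called higher and 0 lower by edgeR (0 lower at an unadjusted p under 0.05 too, and 0 by DESeq2), which is 14.3% called against 23.4% of all tested genes. The called gene was SKAP2, which codes for an adaptor protein of immune cells and flanks the cluster. It stood at 42.8, 42.2 and 45.9 CPM with DMSO and 51.9, 56.7 and 56.4 CPM with WD6305, a log2 change of 0.33 (SE 0.07, adjusted p = 0.00749). HOTAIRM1, a noncoding RNA transcribed from the cluster, did not pass (log2 change 0.51, 95% interval -0.03 to 1.05, adjusted p = 0.159), nor did HOTTIP, at the HOXA13 end (0.53, -0.14 to 1.21, adjusted p = 0.237). HOXA-AS2 (0.46, adjusted p = 0.388), HOXA-AS3 (-0.63, 0.150, with an interval of -1.28 to 0.02), HOXA10-AS (0.01, 0.975) and HOXA11-AS (-0.0053, 0.986) did not pass. These estimates include some as large as those of HOXA3 and HOXA6, with wider intervals. Nor did HOXA2 (-0.02, 0.987) and HOXA13 (0.24, 0.142). The signs of HOXA2, HOXA10-AS and HOXA11-AS turned in some settings.

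The list of TALE genes, to which PBXIP1 was added, gave 2 genes called higher and 0 lower among 11 tested by edgeR, 18.2% against 23.4% of all tested genes (0 lower at an unadjusted p under 0.05, and 0 by DESeq2), with a median log2 change of 0.02. PBXIP1, no TALE factor itself but a protein that binds PBX proteins and was listed with them, stood at 22.8, 22.6 and 21.0 CPM with DMSO and 37.9, 46.5 and 46.3 CPM with WD6305. The rise was by 0.98 on the log2 scale (SE 0.09, adjusted p = 0.000221). MEIS2, the paralog of MEIS1, went from 19.1 ± 1.29 to 24.5 ± 1.37 CPM (log2 change 0.37, SE 0.08, adjusted p = 0.0130), a call lost without WD6305 2 (adjusted p = 0.0538) or WD6305 3 (0.0590) and in the 3 limma fits on FPKM (0.0625 to 0.132). In level PBX2 at 29.5 FPKM came closest to PBX3 among the PBX genes with DMSO, while PBX4 stood at 0.157 FPKM.

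Genes reported as targets of HOXA9 and MEIS1 in leukaemia moved in both directions. Of 23 tested, 6 were called higher and 4 lower, 43.5% against 23.4% of all tested genes, with a median log2 change of 0.16. CYBB, the catalytic subunit of the phagocyte NADPH oxidase, rose from 260.5 ± 12.7 to 369 ± 4.22 CPM (log2 change 0.50, adjusted p = 0.000212), and SYK, a tyrosine kinase of immune receptors, by 0.25 (adjusted p = 0.00380). PIM1, a serine/threonine kinase, fell from 96.1 ± 4.74 to 60.7 ± 8.79 CPM (log2 change -0.66, adjusted p = 0.00157). Other calls, named after their values were seen, were GFI1, MYB and ZEB2, higher by 0.16 to 0.32, and CCND1, CCND3 and SATB1, lower by 0.95, 0.23 and 0.16 on the log2 scale. Of these 6, CCND1 kept its call without each library in turn, and each of the other 5 lost it without at least 1 of the 6 libraries. GFI1 lost it also in the 4 keratin-holding ones (edgeR adjusted p = 0.0714). Over all 17 other settings, ZEB2 lost its call in 9, SATB1 in 8 and GFI1 in 7. CCND3 lost it in 4, MYB in 2 and CCND1 in 1, the limma fit on log2(FPKM + 1) without a filter (adjusted p = 0.0802). FLT3, the receptor kinase, was the most abundant of the list by CPM at 2243 ± 88.9 with DMSO and 2382 ± 66.9 with WD6305, which did not pass.

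Of 32 regulators of HOXA transcription tested, 1 was called higher and 4 lower, 15.6% in all against 23.4% of all tested genes, with a median log2 change of -0.06. NPM1, a nucleolar protein whose cytoplasmic mutants are known to accompany HOXA expression, fell from 1001 ± 63.6 to 693.8 ± 10.2 CPM (log2 change -0.53, adjusted p = 0.000321). WDR5, a core subunit of the KMT2 methyltransferase complexes, fell from 114 ± 5.41 to 83.6 ± 0.0596 CPM (log2 change -0.45, adjusted p = 0.000384). MEN1, which codes for menin and tethers KMT2A to chromatin, fell by 0.25 (adjusted p = 0.00514), and KDM6B, a histone demethylase, by 0.67 (adjusted p = 0.00162). KMT2A itself stood at 82.0 ± 8.76 and 73.9 ± 3.48 CPM (log2 change -0.15, adjusted p = 0.226), and DOT1L (-0.05) and MLLT3 (-0.08) did not pass either. CDX2, a homeobox factor upstream of HOX genes, was called higher from 19, 12 and 12 to 47, 31 and 38 counts (log2 change 1.48, adjusted p = 0.0466). That call was lost in the 4 keratin-holding libraries (1.18, adjusted p = 0.222), without each single library in turn (0.0673 to 0.159) and in most of the other settings tried.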

How the data were processed

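Poly(A) RNA from 6 Mon-Mac-6 libraries was sequenced as paired ends, per the labels' protocols. The deposited table holds an estimated count and an FPKM value per gene and library, and 0 columns of other samples. The build GRCh38 and the tools fastp, HISAT2, StringTie and edgeR are named, without versions, in the submitters' processing notes. The estimated counts are whole numbers with an excess at 4 (1071 to 1176 genes per library, against 553 to 636 at 3), which is why counts divided by 4 were tried. The FPKM values the authors deposited carry their own scaling.

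Counts were tested in edgeR 4.0.16 (R 4.3.3) with filterByExpr, TMM and the quasi-likelihood test, two-sided, 3 libraries against 3, with Benjamini-Hochberg adjustment over 18138 genes and a threshold of 0.05. CPM uses the TMM-scaled library sizes, and FPKM served for levels between genes. The scripts were tested on simulated data. Other settings were DESeq2 1.42.0, limma 3.58.1 on log2(FPKM + 1) and log2(FPKM + 0.1), other scalings and filters, a replicate block, a term for keratin transcripts, the 4 keratin-holding libraries, counts summed with overlapping genes, and leaving out each library. The genes and lists were chosen with earlier results of these data known. Named were the 10 genes, the other HOXA locus genes, up to 4 called genes per other list by smallest adjusted p, and the 3 genes most like HOXA9, MEIS1 and PBX3; some genes that this rule names are not reported here. Lists of cell type markers were summed as a check. Of the marker lists for other cells, 1 of 2 T cell genes tested was called lower, and 0 of 3 B cell, 0 of 4 erythroid, 0 of 3 megakaryocyte, 0 of 10 keratinocyte and 0 of 2 fibroblast genes were called by edgeR, where an unadjusted p under 0.05 was reached by 2 fibroblast genes and 0 of the other 4 lists.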

Additional observations from a re-analysis of the deposited data

How the results depend on the processing

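HOXA7 kept its call in every setting run, HOXA3 lost it in the 4 keratin-holding libraries and HOXA6 in 7 of 18 settings, and the signs of all 10 genes were kept. All genes called numbered 2756 to 4640 with 1 library left out (1446 to 2563 higher, 1310 to 2077 lower), each lowest without WD6305 3, and 1368 were called higher by limma on log2(FPKM + 1) without a filter. Of the 10 genes, 0 were called higher in the 4 keratin-holding libraries and 2 with overlapping genes added (HOXA3 and HOXA4, whose sum is the same), and 1 was called lower without the count filter, 1 with the replicate block and 1 to 3 with 1 library left out. Over the HOXA cluster the counts were 0 higher in the keratin-holding libraries, 1 lower without the filter, 1 lower with the block and 1 to 3 lower with 1 library left out. The TALE list gave 1 higher in the 3 limma fits and 1 to 2 with 1 library left out. Reported targets gave 3 higher and 2 lower by limma without a filter, 10 higher with a term for keratin transcripts and 2 to 3 lower with 1 library left out. Regulators gave 0 higher without the filter, by DESeq2, in the 3 limma fits, with counts divided by 4 and with the block, 0 to 1 with 1 library left out, and 7 lower by DESeq2. With counts in place of FPKM, HOXA9 to HOXA11 made up 73.2% of the HOXA total with DMSO and 73.2% with WD6305. The log2 change of HOXA2 turned positive with the keratin term (0.012), in the keratin-holding libraries (0.13) and without DMSO 3 (0.28) or WD6305 2 (0.36), with a range of -0.34 to 0.36 when 1 library was left out. That of HOXA10-AS turned negative with library sizes alone (-0.015) and without DMSO 1 (-0.12), DMSO 2 (-0.027), WD6305 1 (-0.046) or WD6305 2 (-0.0054), with a range of -0.12 to 0.20. That of HOXA11-AS turned positive with the block (0.0046), in the keratin-holding libraries (0.13) and without DMSO 2 (0.097), DMSO 3 (0.049), WD6305 1 (0.080) or WD6305 3 (0.0018), with a range of -0.15 to 0.097. The cause was not tested for any of these.

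Replicate numbers are shared by the groups, but the deviations of same-numbered libraries correlated at -0.18, 0.078 and -0.15, so the numbers were not taken to pair them. With the replicate number as a block, 3204 genes were called against 4249 without it, 1736 higher and 1468 lower, and HOXA6 had an adjusted p of 0.0595 by edgeR. Not every library correlated best with its own number. Counts were low for HOXA2 (13 to 46 per library) and CDX2 (12 to 47).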

Other observations

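Divergent and antisense transcripts at MEIS1 and PBX3 were looked at after their values had been seen. MEIS1-AS3, a noncoding gene on the opposite strand at the start of MEIS1, had 34, 34 and 26 counts with DMSO and 0, 15 and 8 with WD6305, and PBX3-DT, divergent from PBX3, had 23, 22 and 18 counts with DMSO and 10, 9 and 3 with WD6305. Neither passed by edgeR (log2 change -1.99, adjusted p = 0.151, and -1.45, adjusted p = 0.152). The groups were separate in both, as they were in CPM for 40.8% of all tested genes. By limma on FPKM, MEIS1-AS3 passed in all 3 fits (adjusted p = 0.0137, 0.0399 and 0.0340) and PBX3-DT in the fit on log2(FPKM + 1) without a filter (0.0329).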
